A study of Mus musculus with 9 samples.

Results

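Basal cells of the caput, the first segment of the mouse epididymis, were picked by their transcripts: 1356 of the 13987 caput barcodes within the quality limits, and of 42087 such barcodes in the whole series, were members. A member had 300 to 4000 detected genes, at most 20000 unique molecular identifiers (UMIs, 1 per captured transcript) and under 50% of UMIs from the mitochondrial genome. It also carried at least 1 UMI of Krt5 and at least 2 further markers among Krt14, Krt15, Egfl6, Rflnb and Tinagl1, and at most 1 of the endothelial, macrophage, fibroblast and clear cell genes Pecam1, Cdh5, C1qa, C1qc, Lum and Foxi1. These 12 genes were therefore used by the rule, and their levels below are descriptions. The P42 library gave 533 members, P56 replicate 1 gave 279 and P56 replicate 2 gave 544.

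All mice were untreated wild-type C57BL/6J animals, 5 of them 42 days old (P42) and 10 of them 56 days old (P56), the P56 mice in 2 replicates. Epididymides were cut into caput, corpus and cauda and pooled by segment before dissociation, so that each of the 9 libraries comes from several mice. The paper states that the segments of each epididymis went into separate tubes for caput, corpus and cauda, over 5 mice. Neither it nor the labels say whether P56 libraries of the same replicate number share their mice across segments. Here libraries of 1 age and number are called a pool. There is 1 pool at P42, so that age and pool cannot be told apart. The same rule found 493 basal cells in the corpus (224 at P42, 136 and 133 at P56) and 1002 in the cauda (51 at P42, 489 and 462 at P56).

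Basal cells sit on the basement membrane of the epididymal duct below the principal cells, which secrete proteins into the lumen, and the clear and narrow cells, which acidify it. They share keratins and the transcription factor p63 with basal cells of the skin, airway and prostate, and they are held to the basement membrane by hemidesmosomes. In the epididymis they have been linked to the barrier between blood and lumen, to prostaglandin signalling and to protection from oxidants.

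The caput libraries held 33881990 to 50655384 UMIs, and their basal cells had medians of 7308, 7138 and 6915.5 UMIs (P42, P56 replicate 1, P56 replicate 2; the same order is used for every set of 3 values). Of 41926 distinct barcodes within the limits 116 occurred in more than 1 library, and 3 of the 1356 members had such a barcode. The basal cells of the P42 cauda stood apart, being only 51 cells with 7818 CPM (counts of the summed cells scaled to a library of 1000000 UMIs) of fibroblast and myoid markers, against 247 to 1118 in the basal cells of the caput. The total of called genes in each comparison is also given without that library, while counts within gene lists are not. The caput libraries carried the secretory transcripts of that segment: Lcn8, a secreted lipocalin of the caput, stood at 6622, 10978 and 8749 CPM in basal cells and at no more than 24.8 CPM in any corpus or cauda library.

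The label was checked with genes that the rule had not used. Trp63, which encodes p63, stood at 120, 69.9 and 85.3 CPM in the members, against 16.1, 7.24 and 8.07 CPM in Krt5-negative epithelial cells, which are mostly principal cells. A Trp63 UMI was found in 51.03%, 36.2% and 41.5% of the members. In the endothelial and macrophage gate of the same libraries, the share was 10%, 2.47% and 7.08%, at median depths of 6015.5, 5917.5 and 6806 UMIs. This gate, called endothelial cells and macrophages below, barred only Krt5 among epithelial genes. Its summed keratins lay at 692, 674 and 802 CPM, beside 961, 727 and 766 CPM in Krt5-negative epithelial cells. Its summed endothelial markers lay at 1739, 93.1 and 254 CPM. Whether its barcodes are mixed with epithelial cells was not tested. Itgb4, a subunit of the laminin receptor of hemidesmosomes, lay at 38.9, 29.8 and 31.9 CPM in members and at 4.84, 3.69 and 2.57 CPM in Krt5-negative epithelial cells. Col17a1, a collagen of the same structure, lay at 32.4, 20.04 and 17.8 CPM in members and at no more than 1.61 CPM in Krt5-negative epithelial cells. These basal genes were present in all 3 libraries and the groups of cells did not overlap.

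Cells at the edge of the rule differed in Trp63 by the number of markers they carried. The 256 cells with Krt5 and 1 further marker had 21.0 CPM of Trp63, the 232 members with 2 further markers had 30.9 CPM, and the 463 members with all 5 had 142 CPM. The 376 cells that passed the markers but held 2 or more exclusion genes had 67.8 CPM of Trp63 and 62.2 CPM of Itga6, against 96.1 and 48.2 CPM in all members. A single Krt5 UMI was all that 502 members had. Foxi1, the transcription factor of clear and narrow cells, was the 1 permitted exclusion gene in 285 members, C1qc in 151 and C1qa in 61, while 769 members had none of the 6. Summed markers of macrophages lay at 202, 106 and 215 CPM in members and at 85.9, 67.8 and 86.4 CPM in Krt5-negative epithelial cells. They lay at 2869, 2990 and 2255 CPM in the endothelial and macrophage gate. C1qa and C1qc of this list were used by each of these gates, so these values are descriptions. Summed markers of clear and narrow cells lay at 1155, 829 and 1356 CPM in members and at 734, 685 and 1051 CPM in Krt5-negative epithelial cells. Foxi1 of this list was permitted in members and barred from the Krt5-negative gate, so the gates may set part of this gap. The endothelial and macrophage gate held 1155, 1440 and 2209 CPM, the same as members at P42 and more in both P56 libraries. Members thus did not stand out from every other gate in these markers. The part of clear and narrow cell transcripts in the results below was not tested.

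The genes highest in caput basal cells over other cells of the caput included keratins, Ly6d, Qrfp, Serpinb5, Egfl6 and Adh1. Of 4616 genes with at least 20 CPM in the members of every caput library, 62 were at least 3 times as high (with 1 CPM added) as in each of the 3 other gates, which were the Krt5-negative epithelial, clear or narrow, and endothelial or macrophage cells. The rule chose the cells by this contrast, so it is a description without a test. Krt5 stood at 427, 308 and 394 CPM, Krt14 at 343, 353 and 395 CPM and Krt15 at 232, 166 and 179 CPM.

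Qrfp, which encodes the RFamide peptide 26RFa/QRFP, was the highest-ranked gene of a signalling peptide, at 75.3, 108 and 99.5 CPM in members. In Krt5-negative epithelial cells it lay at 5.02, 2.41 and 3.16 CPM and in the clear or narrow cells at 7.15, 4.25 and 7.18 CPM. A Qrfp UMI was found in 28.9%, 41.6% and 40.1% of members, and in 3.66%, 1.85% and 5.01% of endothelial cells and macrophages. Most members of each library therefore had no Qrfp UMI at this depth. The share with a UMI was above the share in endothelial cells and macrophages.

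Ly6d, a surface protein of squamous epithelium, lay at 103, 141 and 198 CPM in the members and at no more than 15.4 CPM in any other gate. Egfl6, a secreted protein with EGF repeats, lay at 289, 246 and 272 CPM. Serpinb5 (maspin) lay at 114, 95.1 and 120 CPM, and Lgals7, which encodes galectin-7 of stratified epithelia, at 78.1, 80.6 and 90.6 CPM. These levels differed little between the libraries beside the gap to the other gates, which the plot of the 25 highest-ranked genes shows.

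Enzymes of small-molecule metabolism included the alcohol dehydrogenase Adh1, at 255, 266 and 302 CPM in members and at 27.1, 14.9 and 15.6 CPM in Krt5-negative epithelial cells. The carbonyl reductase gene Cbr2 lay at 275, 275 and 323 CPM against 18.1, 7.99 and 12.3 CPM. The zinc importer gene Slc39a4 lay at 52.2, 50.8 and 51.4 CPM against 6.997, 2.56 and 3.74 CPM. Among receptors and their adaptors, Egfr lay at 35.4, 25.6 and 31.2 CPM, the interleukin-25 receptor gene Il17rb at 49.2, 50.8 and 53.8 CPM and Edaradd, the adaptor of the ectodysplasin receptor, at 73.2, 59.2 and 69.7 CPM. The water channel Aqp3, a basal cell gene of other epithelia, was at or near 0, with no more than 0.466 CPM, and the angiotensin receptor gene Agtr2 reached no more than 2.33 CPM.

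**Figure D1:**
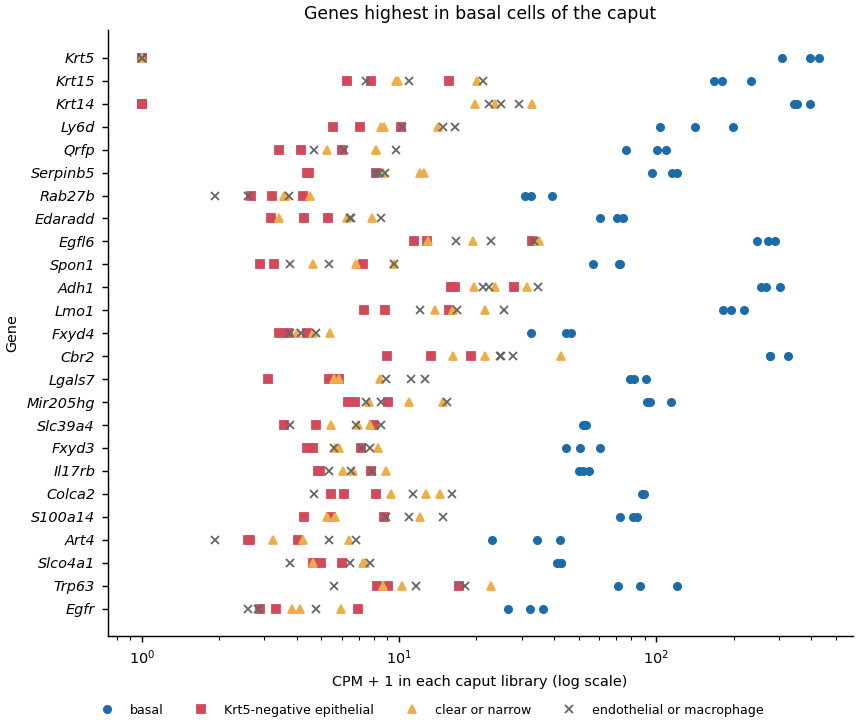
CPM + 1 (log axis) of the 25 genes ranked highest in caput basal cells over the other gates, with 1 point for each of the 3 caput libraries and gate. Qrfp lies between 75.3 and 108 CPM in basal cells and at no more than 8.71 CPM in the other gates, and for each gene the basal points of the 3 libraries lie above those of the other gates.

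Secretory transcripts of the caput were abundant in the basal cells, as in each of the other gates of these libraries. The 37 genes of a list of caput secretion made up a median of 7.07%, 12.7% and 9.66% of the UMIs of a basal cell. The median was 17.03%, 25.8% and 25.5% in Krt5-negative epithelial cells and 6.19%, 18.4% and 18.8% in endothelial cells and macrophages. In both P56 libraries basal cells thus carried a smaller share of these transcripts than the endothelial and macrophage gate did. At P42 they carried a slightly larger one. Gpx5, a secreted peroxidase of the caput, lay at 22304, 42253 and 37429 CPM in members and at 22036, 59534 and 54921 CPM in the endothelial and macrophage gate. Lcn2, a lipocalin that binds siderophores, differed from this: it lay at 7554, 8131 and 7015 CPM in members, at 7323, 7382 and 7415 CPM in Krt5-negative epithelial cells and at 4052, 6121 and 5436 CPM in endothelial cells and macrophages.

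**Figure D2:**
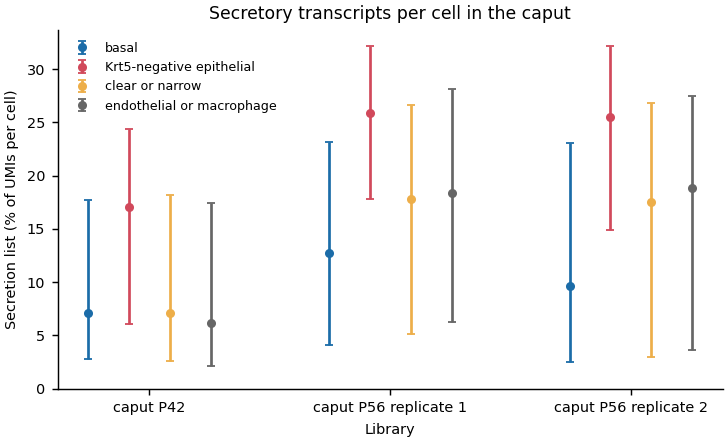
Percentage of UMIs per cell from the caput secretion list in each caput library and gate, where points are medians over cells and bars run from the 10th to the 90th percentile. The median of basal cells (7.07%, 12.7% and 9.66%) lies below that of Krt5-negative epithelial cells in all 3 libraries.

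The share of basal cells and their mitochondrial content were compared between segments. Basal cells made up 12.7%, 5.73% and 11.1% of caput barcodes, 4.91%, 2.88% and 2.96% of corpus barcodes and 1.11%, 10.1% and 9.48% of cauda barcodes. The caput and cauda overlapped, and the difference of 4.59 points between the caput mean and the mean of corpus and cauda did not pass a two-sided exact permutation test within pools (p = 0.222, smallest possible 0.037). Without the P42 cauda library the difference was 3.15 points (p = 0.292, exact permutation). With every cell thinned to 1000 UMIs before the rule was applied it was 1.65 points, with the smallest p the design allows (0.037, exact permutation). At that depth, passing the rule also depends on how much marker RNA a cell holds, so this share does not measure cell number alone. Summed basal markers lay at 2495, 1948 and 2316 CPM in caput basal cells. They lay at 2273, 1456 and 1712 CPM in the corpus and 2911, 1501 and 1396 CPM in the cauda. The median mitochondrial share was 5.92%, 6.39% and 6.34% in the caput, 11.6%, 16.0% and 17.1% in the corpus and 8.15%, 15.4% and 13.6% in the cauda. The caput was lower in all 3 pools, by 7.43 points on average (p = 0.037, the smallest possible; adjusted over both measures 0.0741, exact permutation), and by 8.49 points without the P42 cauda library (p = 0.0556). Neither measure passed after adjustment. Beside the p of 0.222 for the share (exact permutation), 0.0741 was the smallest adjusted value the mitochondrial measure could reach, so it could not pass.

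**Figure D3:**
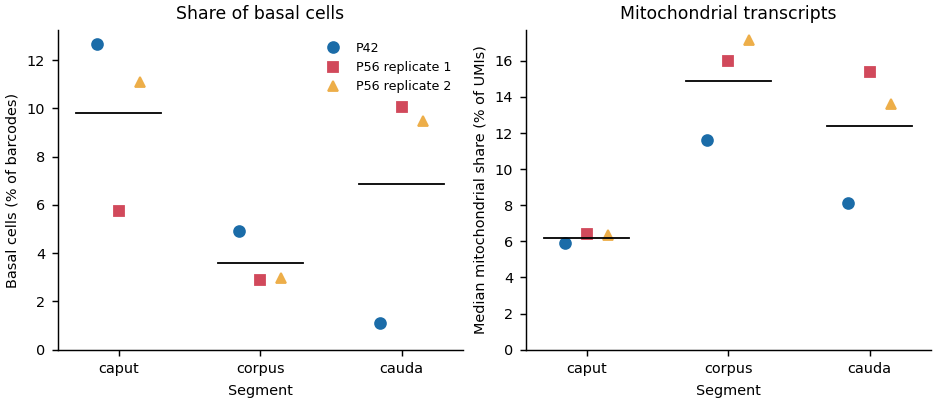
Basal cells as a percentage of barcodes within the limits (left) and the median percentage of mitochondrial UMIs per basal cell (right) by segment, with 1 point per library and the mean as a bar. The caput shares, 5.73% to 12.7%, overlap those of the cauda, and the mitochondrial medians of the caput, 5.92% to 6.39%, lie under those of the other 6 libraries.

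UMIs were then summed over the basal cells of each library, and the caput was compared with the mean of corpus and cauda by edgeR's quasi-likelihood test, blocked on the pool. Of 10618 genes tested, 1318 (12.4%) were called (Benjamini-Hochberg adjusted p under 0.05, and no less than 1 in absolute log2 fold change), with 666 (6.27%) higher and 652 (6.14%) lower in the caput. Without TMM factors, a scaling that moved the median of all genes from 0.021 to 0.24, the split was 877 higher and 463 lower, and without the P42 cauda library it was 876 and 770. Without the block on the pool 617 genes were higher and 577 lower. The 10 genes named for the largest increase were Klrb1c, Klrb1a, Clpsl2, Cst12, Ly6g5c, Ly6g5b, Spag11b, Rnase10, Lcn9 and Pate5, of which Klrb1a was not called with DESeq2 (adjusted p = 0.0614). Ly6g5c, of the Ly6 family, rose from 0 to 3.38 CPM in corpus and cauda to 1301, 1522 and 1312 CPM in the caput (log2 fold change 9.59, SE 0.28, adjusted p = 2.76e-13). Cst12, a cystatin, rose by 9.74 and Lcn9 by 9.15 on the same log2 scale. Klrb1c, of the natural killer receptor family, stood at 76.2, 105 and 72.1 CPM in caput basal cells and had no UMI in the basal cells of the other 6 libraries. At the other end Ltf (lactoferrin) fell by 8.14, Ly6f by 8.36, Pate1 by 7.99 and the defensin gene Defb38 by 7.65 on the log2 scale.

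These leading genes were not highest in basal cells. Ly6g5c stood at 2748, 3251 and 3284 CPM in the Krt5-negative epithelial cells of the caput, Klrb1c at 152, 185 and 166 CPM. Of the 666 genes higher in the caput, 465 were, in all 3 caput libraries, at or under their level in the higher of the Krt5-negative epithelial and the endothelial and macrophage gates, and 221 exceeded the endothelial and macrophage gate in no caput library. Of the 652 lower genes, 329 were at or under the higher of these gates in all 6 corpus and cauda libraries. The part of transcripts from other cells in these differences was not tested gene by gene. Of the 37 caput secretion genes, 28 rose and 6 fell, beside 6.27% and 6.14% of all genes, with a median log2 fold change of 5.32 against 0.021 over all genes tested. That list was made of genes of caput secretion, with earlier results of these data known, so its count is a description and not a test.

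A set of genes led by basal cells was therefore picked, after these values were seen, as those called and at least 2 times as high in basal cells as in both the Krt5-negative epithelial and the endothelial and macrophage gates (1 CPM added) in all libraries of the higher side. The clear or narrow gate was not part of this rule, so a gene of the set may be as high in those cells. The set held 23 genes higher and 7 lower in the caput. Of the 23, 11 were called in every fit that left out a pool or the P42 cauda library: Gjb6, Gm4208, Cldn16, Fbln7, Qrfp, Slc35f3, Slc39a4, Sec1, Rmst, Inmt and Col16a1. Of the 7, this held for Lgals7, Gm13219 and Tmem45b.

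Qrfp (chr2:31806168-31810580, GRCm38.p6, as are all positions here) lay at 26.0, 14.7 and 7.22 CPM in corpus basal cells and at 18.7, 9.47 and 10.8 CPM in the cauda. The caput values of 75.3, 108 and 99.5 CPM did not overlap with them, and the rise was 2.54 on the log2 scale (SE 0.23, adjusted p = 3.08e-07). The share of basal cells with a Qrfp UMI was 12.1%, 8.09% and 3.01% in the corpus and 9.80%, 6.75% and 8.44% in the cauda, and with cells thinned to 2000 UMIs it was 11.4%, 17.9% and 17.3% in the caput and 1.64% to 6.52% elsewhere.

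Slc39a4 (chr15:76612383-76618506), the zinc importer, was highest in the caput and lowest in the cauda. The step from corpus to cauda was not tested, and the P42 cauda value rests on 3 UMIs. Its caput level of 52.2, 50.8 and 51.4 CPM compared with 19.97, 23.7 and 16.9 CPM in the corpus and 9.36, 8.12 and 7.82 CPM in the cauda, and the rise was 1.78 (SE 0.18, adjusted p = 1.15e-06). None of the 3 groups overlapped.

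Junction genes included Gjb6 (chr14:57123301-57133611), which encodes the gap junction protein connexin 30. It lay at 22.4, 17.2 and 17.3 CPM in the caput, at 2.42, 0 and 1.20 CPM in the corpus and at 0, 0.271 and 0.245 CPM in the cauda (log2 fold change 4.58, SE 0.42, adjusted p = 3.98e-07). Krt5-negative epithelial cells of the caput had less of it, at 5.38, 7.01 and 5.85 CPM. Cldn16, a tight junction claudin, lay at 7.69, 13.0 and 10.1 CPM and rose by 3.16 (SE 0.49), on 28 to 42 UMIs in the caput libraries. The channel gene Panx1 rose by 1.96, a call that was lost without P56 replicate 1 (adjusted p = 0.153).

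Matrix genes in this set were Fbln7 (fibulin-7), with a rise of 2.83 (SE 0.41), and Col16a1, with a rise of 1.16 (SE 0.19). Col16a1 lay at 70.6, 33.1 and 34.8 CPM in the caput, against 26.0, 19.2 and 13.2 CPM in the corpus and 43.7, 12.2 and 9.78 CPM in the cauda, so that the P42 cauda lay within the caput range. Col4a3, a chain of basement membrane collagen, rose by 1.07, and by 0.95 without P56 replicate 2, which is under the fold used for a call. Mmp7 (matrilysin, a secreted protease) lay at 230, 224 and 137 CPM in the caput and at 31.2, 143 and 134 CPM in the cauda. Its rise of 1.17 became 0.91 without the P42 cauda library, 0.86 without the P42 pool and not significant without P56 replicate 1 (adjusted p = 0.131).

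Metabolic genes did not follow a single order of segments. Inmt, an N-methyltransferase of indole amines, lay at 103, 132 and 128 CPM in the caput, 18.2, 22.6 and 26.5 CPM in the corpus and 93.6, 89.3 and 111 CPM in the cauda. Its rise was 1.18 (SE 0.15, adjusted p = 2.71e-05), with a wide gap to the corpus and a caput P42 value inside the cauda range. The aldehyde dehydrogenase gene Aldh3a1 was highest in the corpus, at 184, 179 and 160 CPM against 98.2, 48.0 and 97.3 CPM in the caput and 6.24, 8.66 and 3.18 CPM in the cauda. Its call as higher in the caput (1.06) was lost without the P42 pool (0.92) and without P56 replicate 2 (0.62). The carbonic anhydrase gene Car12 rose by 1.05 (SE 0.17), with 0.95 without P56 replicate 2.

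Lgals7 fell by 1.61 on the log2 scale (SE 0.18, adjusted p = 5.39e-06). Its 78.1, 80.6 and 90.6 CPM in the caput were below all corpus values (315, 193 and 238 CPM) and all cauda values (321, 179 and 149 CPM). Tmem45b, a membrane protein gene, fell by 1.42 (SE 0.26), from 26.7 to 37.6 CPM in the cauda and 12.4 to 13.2 CPM in the corpus to 6.29, 6.99 and 12.3 CPM. Hbegf, a ligand of the EGF receptor, fell by 2.18, but the call was lost without either P56 pool, as were those of Adm and Arc, and that of Igfbp2 was lost without P42 and without P56 replicate 1.

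**Figure D4:**
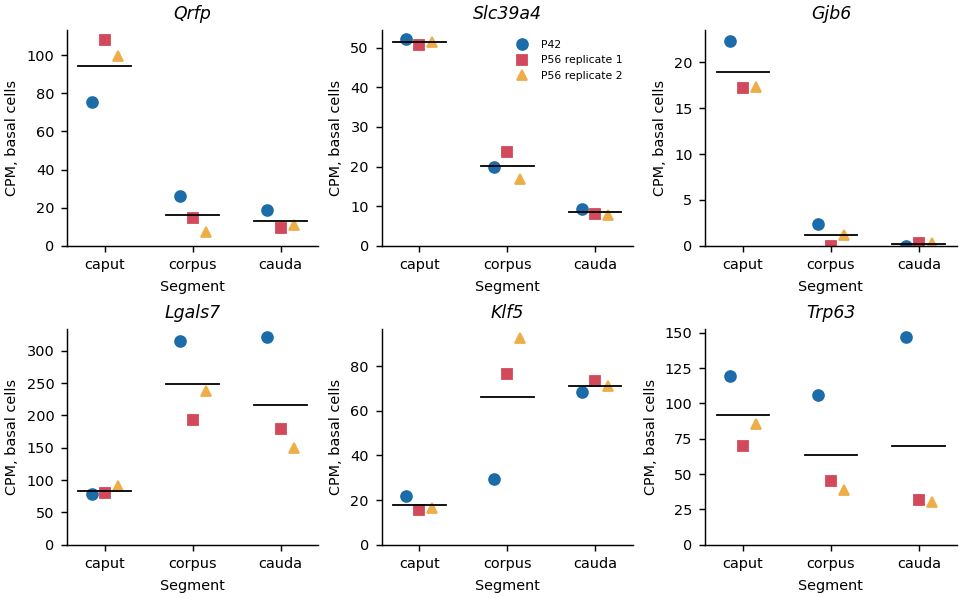
CPM of 6 genes in the basal cells of each library by segment, with the mean of the 3 libraries as a bar. Qrfp, Slc39a4 and Gjb6 lie higher in all caput libraries than in any corpus or cauda library, Lgals7 and Klf5 lie lower, and Trp63 overlaps between segments.

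Trp63 and genes of the attachment to the basement membrane gave few calls between segments. Trp63 lay at 106, 45.1 and 38.5 CPM in the corpus and 147, 31.9 and 30.6 CPM in the cauda, a log2 difference of 0.55 (SE 0.18, adjusted p = 0.0441), which is under the fold used for a call. Of 14 tested genes of hemidesmosomes and laminin receptors, 0 were called, beside 12.4% of all genes, with a median log2 fold change of 0.0417. With so few genes in a list, this count is not far from that share. Itgb4, for example, differed by -0.70 (SE 0.19, adjusted p = 0.015) and Itga6 by 0.38. Of 17 tested basement membrane genes 1 rose (Npnt, a call lost without P56 replicate 2, adjusted p = 0.116) and 1 fell, and of 6 Notch pathway genes 0 were called. Npnt was also called lower on the scale set against Krt5-negative epithelial cells (below). At an unadjusted p under 0.05, 3419 genes passed over the whole table, against 2720 with DESeq2.

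Among transcription factors, Klf5, Id3 and 5 others were lower in the caput. Of 22 tested factors of basal and other epithelia, 7 fell (Elf3, Id1, Id2, Id3, Klf4, Klf5 and Pax2), beside 6.14% of all genes, and 0 rose, with a median of 0.0327. Klf5, a Krüppel-like factor of proliferating epithelium, lay at 21.7, 15.4 and 16.3 CPM in the caput, 29.7, 76.7 and 92.7 CPM in the corpus and 68.6, 73.6 and 71.2 CPM in the cauda (log2 fold change -2.02, SE 0.28, adjusted p = 5.92e-05). Set against the segment difference of Krt5-negative epithelial cells (below), 1 of 24 tested factors was called, Sox9, beside 4.54% of all genes. Klf5 was thus not shown to fall more in basal cells than in those cells. Id3, an inhibitor of basic helix-loop-helix factors and a target of BMP signalling, lay at 54.6, 15.8 and 22.6 CPM in the caput and at 820, 913 and 983 CPM in the cauda, and it fell by 3.26. Other caput cells showed the same order of segments for Id3, with 504, 464 and 562 CPM in the Krt5-negative epithelial cells of the cauda against 41.1, 9.43 and 14.3 CPM in those of the caput. The calls of Elf3 were lost without either P56 pool, and that of Id1 without P56 replicate 1 (adjusted p = 0.0615).

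Of 14 tested genes of angiotensin, prostaglandin and water transport, Ace and Qrfp rose and 7 fell (Aqp9, Hpgd, Ptgds, Ptger4, Ptgs1, Ptgs2 and Trpv6), beside 6.27% higher and 6.14% lower over all genes, with a median of -1.04. Ptgs1, the constitutive cyclooxygenase, lay at 90.2, 66.2 and 77.1 CPM in caput basal cells, 154, 118 and 149 CPM in the corpus and 203, 216 and 292 CPM in the cauda (log2 fold change -1.43, SE 0.20, adjusted p = 5.08e-05). Hpgd, which inactivates prostaglandins, fell by 1.75 (SE 0.18), from 84.3 to 206 CPM in corpus and cauda to 52.7, 29.4 and 47.3 CPM. Ptges, the synthase of prostaglandin E2, differed by -0.93 (SE 0.16, adjusted p = 0.000556), under the fold for a call. Of 6 tested genes of the EGF family, Egf, Erbb2, Hbegf and Nrg1 fell, beside the same 6.14% of all genes, the latter 3 with calls that were lost without either P56 pool.

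Antioxidant, chemokine and stress genes also fell where they were called. Of 28 tested antioxidant genes 5 fell (Gpx3, Gpx4, Gstm1, Gstp1 and Srxn1) and 0 rose, with a median of -0.491; the counts of lower genes in this paragraph stand beside 6.14% of all genes. Gpx3, a secreted glutathione peroxidase, lay at 163, 138 and 193 CPM in the caput against 3295 to 6553 CPM elsewhere, and was higher still in the Krt5-negative epithelial cells of corpus and cauda (5648 to 10679 CPM). Gstp1, a glutathione transferase whose reads may be shared with its near-identical copy Gstp2, lay at 89.8, 93.7 and 143 CPM in the caput and 281 to 484 CPM elsewhere (log2 fold change -1.99, SE 0.18). Of 14 chemokine and cytokine genes 5 fell, among them Cxcl10, a ligand of the receptor Cxcr3, by 1.85 (SE 0.26). Of 23 genes of the dissociation and heat-shock response 10 fell, with a median of -0.745, and the list made up 1.95%, 0.82% and 0.755% of the UMIs of a median basal cell in the caput, 1.33%, 1.75% and 2.06% in the corpus and 1.84%, 2.08% and 1.95% in the cauda. The calls of Atf3, Egr1 and Nr4a1 in that list were lost without either P56 pool. Cell cycle genes gave 0 calls among 18, which is not far from the 12.4% called over all genes. Of 11 genes of the mitochondrial genome 6 fell, with a median of -1.001.

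Lists of signalling, junction and antigen presentation genes held calls in both directions or few calls, at shares to be read beside the 12.4% called over all genes. Of 20 tested genes of the TGF-beta and BMP pathway, Inhba, Inhbb, Ltbp3 and Tgfb3 rose while Fst and Ltbp1 fell. Of 21 Wnt pathway genes, the nuclear factors Lef1 and Tcf7 rose and the ligand Rspo3 fell, a share near that of all genes. Of 23 junction genes 4 rose, among them Cldn2, Cldn10 and Gja1, while Cldn3 and Cldn4 fell, the call of Cldn4 being lost without either P56 pool. Set against the segment difference of Krt5-negative epithelial cells (below), Lef1, Tcf7, Ltbp3, Cldn10 and Gja1 were called lower. Their rise was thus smaller in basal cells than in those cells. Of 6 keratins Krt23 rose and Krt8 fell, the latter call being lost without P56 replicate 1 (adjusted p = 0.106), and of 17 genes of antigen presentation and complement C3 and H2-Ab1 fell, also near that share. C3 stood under the fold for a call with the stricter basal rule (-0.91), without TMM factors (-0.94) and with at most 10000 UMIs per cell (-0.83).

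Markers of other cells also moved between segments within the basal cells. Of 3 tested endothelial markers, 3 rose (Emcn, Flt1 and Kdr), beside 6.27% of all genes, and of 4 sperm markers 3 rose (Fabp9, Ldhc and Prm1), while of 9 fibroblast and myoid markers 4 fell and Pdgfra rose. The summed endothelial markers lay at 93.7, 38.7 and 41.1 CPM in the caput and at 5.62 to 19.4 CPM elsewhere. The summed sperm markers lay at 25.9, 76.4 and 526 CPM in the caput and at 76.9, 180 and 171 CPM in the corpus, so that the caput sum was lower than the corpus sum in the P42 pool and in P56 replicate 1. In the cauda they lay at 28.1, 13.8 and 12.5 CPM, under the caput in both P56 pools and slightly above it at P42. Of 12 principal cell markers 8 rose and 3 fell, of 9 clear cell markers 1 fell, of 4 erythrocyte markers 1 rose, and 0 of 5 macrophage and 0 of 2 T cell markers were called, which is near the share of all genes. The 1 ciliated cell marker tested rose. The part of all these in the differences above was not tested.

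The segment difference of basal cells was next set against that of the Krt5-negative epithelial cells of the same libraries, by a term for the difference of differences with library as a block (edgeR). Of 13676 genes tested, 621 (4.54%) were called, with 253 (1.85%) higher and 368 (2.69%) lower for basal cells in the caput. The split turned with the scaling and with the libraries used, with 316 and 296 without TMM factors, 351 and 298 without the secretion genes, 444 and 288 without the P42 pool and 222 and 183 without P56 replicate 1, and without the library block only 99 and 142 genes were called. Without the P42 cauda library the counts were 254 and 395. For some named genes the segments differed little in basal cells and more in the Krt5-negative epithelial cells. Ggta1, the galactosyltransferase that makes the alpha-gal epitope, lay at 33.8, 24.2 and 25.2 CPM in caput basal cells, 31.5, 14.7 and 39.7 CPM in corpus and 46.8, 30.8 and 38.4 CPM in cauda basal cells. In Krt5-negative epithelial cells it lay at 2.87, 1.06 and 1.29 CPM in the caput and at 30.4 to 44.1 CPM elsewhere, a difference of differences of 4.19 (SE 0.25, adjusted p = 7e-11). In the caput Ggta1 was thus higher in basal than in Krt5-negative epithelial cells, and the endothelial and macrophage gate held 27.0, 2.76 and 9.90 CPM.

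Slc52a3, a riboflavin transporter gene, followed that pattern, with 22.1, 15.4 and 17.5 CPM in caput basal cells against 3.77, 0.98 and 2.22 CPM in the Krt5-negative epithelial cells (difference of differences 3.49, SE 0.26). Adh1 lay at 177 to 412 CPM in the basal cells of every segment, while the Krt5-negative epithelial cells had 47.7 to 142 CPM in corpus and cauda and 14.9 to 27.1 CPM in the caput (2.27, SE 0.15). S100a14, a calcium-binding protein gene, lay at 83.2, 80.2 and 71.6 CPM in caput basal cells and at 7.71, 4.45 and 3.28 CPM in their Krt5-negative neighbours, which in the cauda reached 62.1 to 86.9 CPM (2.82, SE 0.22). Qrfp was also higher on this scale, with a difference of differences of 2.09 (SE 0.33, adjusted p = 1.01e-04), as did Inmt with 1.97 (SE 0.26).

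Of 18 tested genes of angiotensin, prostaglandin and water transport, 4 were called higher on this scale (Hpgd, Ptges, Ptgs1 and Qrfp), beside 1.85% of all genes, and 0 lower, with a median of 0.90 against -0.0188 over all genes. For Ptges the Krt5-negative epithelial cells lay at 16.9, 9.58 and 20.4 CPM in the caput and at 87.7 to 225 CPM elsewhere, while basal cells lay at 85.6, 79.2 and 115 CPM and at 86.8 to 207 CPM (2.38, SE 0.14, adjusted p = 7e-11). Hpgd, Ptges and Ptgs1 thus had a smaller difference between segments in basal cells than in the Krt5-negative epithelial cells, while the other prostaglandin genes tested were not called. With the endothelial and macrophage gate in the place of the Krt5-negative cells, 18 genes were higher and 5 lower, and the calls of Qrfp (1.47, adjusted p = 0.676), Hpgd (0.09), Ptges (0.70), Ggta1 (0.91), Slc52a3 (0.96), Adh1 (1.40) and S100a14 (1.20) were lost, while Ptgs1 stood at -0.25.

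Of 20 tested cell cycle genes 9 were lower on this scale, beside 2.69% of all genes, and 0 higher, with a median of -0.823. Mki67, a proliferation marker, lay at 12.8, 8.39 and 9.61 CPM in caput basal cells and at 42.0, 10.3 and 22.6 CPM in the Krt5-negative epithelial cells, with UMIs in 7.13%, 3.58% and 3.31% of members and in 10.5%, 2.47% and 8.55% of endothelial cells and macrophages. Its difference of differences of -1.35 was -0.31 (adjusted p = 0.795) without the P42 pool, and its call was also lost without P56 replicate 2 (adjusted p = 0.0769), without the library block (adjusted p = 0.633) and with DESeq2 (adjusted p = 0.48). The call of Top2a, a topoisomerase of dividing cells, was lost in the same 4 settings, among others. Lcn2 was lower by 3.36, since Krt5-negative epithelial cells outside the caput had 79.9 to 194 CPM and basal cells there 1038 to 1706 CPM. Per UMI, Lcn2 was thus higher in basal than in Krt5-negative epithelial cells outside the caput, and at like levels in the caput.

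The ages were compared by a model that gave every combination of segment and age its own mean, and the single P42 library of a segment was assumed to vary like the P56 pairs. Of 12639 genes tested, 145 (1.15%) were called, with 70 (0.554%) higher and 75 (0.593%) lower in the P56 caput basal cells. Without TMM factors 68 were higher and 128 lower, and without the P42 cauda library 76 and 77. The 20 genes named for the largest changes included the sperm genes Prm1, Prm2 and Smcp and the stromal genes Col3a1, Des and Eln. Prm1, a sperm protamine, lay at 6.53 CPM at P42 and at 28.9 and 166 CPM at P56 (log2 fold change 4.09, SE 0.74, adjusted p = 0.0132), beside 8.21, 19.3 and 306 CPM in endothelial cells and macrophages. Col3a1, a fibrillar collagen of fibroblasts, lay at 108, 7.92 and 13.2 CPM (-3.11, SE 0.28, adjusted p = 1.62e-04), beside 334, 8.29 and 16.2 CPM in endothelial cells and macrophages. Beside the shares above, of 6 sperm markers 2 rose, of 10 fibroblast and myoid markers 5 fell, and the summed fibroblast markers of the caput basal cells lay at 1118 CPM at P42 and 247 and 440 CPM at P56. Their part in the age differences was not tested.

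Paxbp1 and Dapk3 were higher at P56 in members, and their levels in Krt5-negative epithelial cells showed the same order of libraries. Paxbp1, a gene of a nuclear protein, lay at 3.50, 27.5 and 41.6 CPM in members and at 3.95, 16.2 and 33.7 CPM in Krt5-negative epithelial cells (log2 fold change 3.49, SE 0.37). Dapk3, a death-associated kinase gene, lay at 3.26, 19.6 and 31.2 CPM in members and at 4.31, 16.97 and 28.3 CPM in those cells. Of the 10 genes named for the largest rise, 5 were called in every fit without 1 library (Prm1, Paxbp1, Spint4, Fam221b and Dapk3), and of the 10 for the largest fall 3 (Aldh1l1, Col3a1 and Rgs5). Without P56 replicate 2 of the caput the calls of Prm2 (adjusted p = 0.0715), Spz1 (adjusted p = 0.305), Spint5 (adjusted p = 0.137), Smcp (adjusted p = 0.171) and Aven (adjusted p = 0.0663) were lost.

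Response genes of dissociation and heat shock fell with age in the caput. Of 23 genes 11 fell at P56, beside 0.593% of all genes, and 0 rose, with a median of -1.06 against -0.011 over all genes. Atf3, a stress-induced transcription factor, lay at 1283, 313 and 270 CPM (-1.95, SE 0.20, adjusted p = 3.5e-04). Nr4a1, an immediate early nuclear receptor, lay at 172, 21.4 and 28.1 CPM (-2.59, SE 0.24), and Hbegf at 128, 43.3 and 43.7 CPM (-1.38, SE 0.22). Beside the basal medians of 1.95%, 0.82% and 0.755%, this list made up 2.09%, 0.615% and 0.528% of UMIs in endothelial cells and macrophages and 0.824%, 0.229% and 0.234% in Krt5-negative epithelial cells. The P42 library was thus the highest in each gate. The calls of Fos, Jun and Hbegf were lost without P56 replicate 2 of the caput, with adjusted p of 0.0998, 0.19 and 0.0726, and that of Jun also without P56 replicate 1 (adjusted p = 0.0968).

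Qrfp, Trp63, Ly6d and Slc39a4 were not called with age. Qrfp differed by 0.64 (SE 0.23, adjusted p = 0.27), Trp63 by -0.44 (SE 0.19, adjusted p = 0.401), Ly6d by 0.90 (SE 0.26, adjusted p = 0.136) and Slc39a4 by 0.15 (SE 0.22, adjusted p = 0.873). Of 14 hemidesmosome genes and 5 basal markers that the rule had not used, 0 were called, and at the 1.15% called over all genes fewer than 1 would be. Of 17 basement membrane genes Col4a1 fell, a call lost with DESeq2 (adjusted p = 0.0551). With 1 library at P42, differences of this size could not be told from the spread between libraries.

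The age difference of the caput was set against that of corpus and cauda in the same model. Of 12639 genes, 100 (0.791%) were called, with 18 (0.142%) higher and 82 (0.649%) lower. Without TMM factors the split turned, with 79 higher and 44 lower, as the median of all genes moved from -0.0743 to 0.28. Of 23 dissociation and heat-shock genes 10 were lower, beside the 0.649% of all genes, and 0 higher, with a median of -1.27 against -0.0743 over all genes. Atf3 fell with age in the caput and stood at 1109, 2912 and 3084 CPM in corpus and 1391, 4048 and 4098 CPM in cauda basal cells, a difference of -3.97 (SE 0.26, adjusted p = 5.4e-06). Hbegf stood at 104, 259 and 370 CPM in the corpus and 140, 607 and 611 CPM in the cauda, a difference of -3.77 (SE 0.29, adjusted p = 2.41e-05). Of the 10 genes named on this side, 7 were called in every fit that left out a caput P56 library or the P42 cauda library (Atf3, Hbegf, Ifrd1, Csrnp1, Maff, Nr4a1 and Gadd45b), but of the 10 named on the higher side 0 were. Without the P42 cauda library 1 gene was called higher and 25 lower. Ptgs2, the inducible cyclooxygenase, rested on that library, with a difference of -6.58 that became -1.94 (adjusted p = 0.921) without it.

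**Figure D5:**
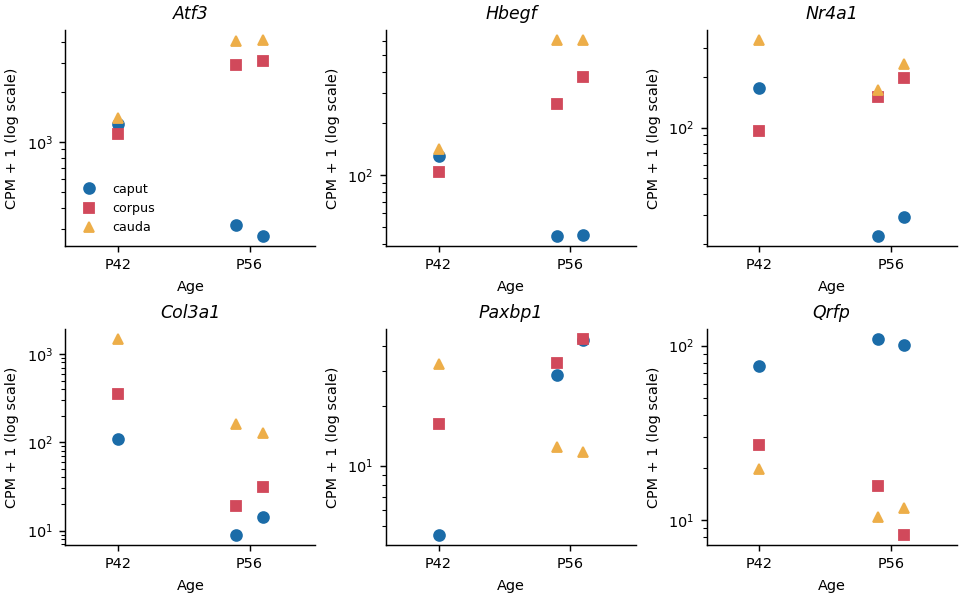
CPM + 1 (log axis) of 6 genes in basal cells at P42 (1 library per segment) and P56 (2 libraries per segment), coloured by segment. Atf3, Hbegf and Nr4a1 lie lower at P56 than at P42 in the caput, Col3a1 lies lower at P56 in every segment, and Qrfp lies higher in the caput than in corpus and cauda at both ages.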

How the data were processed

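Single-cell RNA-seq of the 9 libraries was made on a microfluidic chip with barcoded beads, after digestion of the tissue and lysis of red cells. The authors trimmed reads with fastp, extracted barcodes with UMI-tools, mapped with STAR 2.7.3a to GRCm38.p6 and counted UMIs on exons, and the deposited values are these raw counts, without normalization, for 32195 genes. Strand use was not given in the sources used here. Positions are those of RefSeq for GRCm38.p6.

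Gates were set on the counts in Python 3.11.15, using pandas 2.3.3, numpy 2.4.6 and scipy 1.17.1, and figures were drawn with matplotlib 3.10.9. No doublet caller was run, and cells with at most 10000 UMIs served as an alternative. The members and lists were chosen with earlier results of these data known. The Krt5-negative epithelial gate held 4152 caput cells with none of 10 genes of other cells or basal cells and at least 2 of 5 epithelial genes, the clear or narrow gate 2854 cells with Foxi1 and a proton pump or exchanger gene, and the endothelial or macrophage gate 911 cells with Pecam1 and Cdh5 or with C1qa and C1qc. Cells of a library are not replicates, so UMIs were summed per library and gate (at least 10 cells), and the sums were compared with R 4.3.3 and edgeR 4.0.16 (filterByExpr, TMM, quasi-likelihood test, Benjamini-Hochberg over all genes tested). The P42 and P56 pools differ in age as well as in mice, and p-values measure the spread between libraries.

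Named genes were, in each direction, the 10 calls of greatest fitted size that moved alike in every pool, without gene models of the Gm, Rik and AC kinds, the 25 genes highest in basal cells, and members of 26 fixed lists. Some genes that met this rule are not reported here. In simulated data, 200 genes were given a 2-unit log2 shift, of which edgeR recovered 188 (94%) between segments in 10203 genes, 159 (79.5%) for segment by cell type in 12811 genes, 156 (78%) between ages and 88 (44%) for age by segment, both in 11581 genes. Genes without a shift were falsely called 4, 3, 11 and 10 times in these comparisons, in the same order. The simulated libraries had a common mean per gene, with no difference between pools or segments beyond the shift. These counts therefore cannot speak to errors from age and pool being confounded. Deviations of libraries of 1 pool correlated by 0.0989 to 0.344 (8 of 9 pairs over 0.1), against -0.282 to 0.12 between pools (3 of 18 over 0.1). Between the P56 pools alone 3 of 6 pairs were over 0.1, with a median of 0.0884, so that the numbers are not shown to pair the P56 libraries, and counts without the block are given. DESeq2 1.42.0, other filters, scalings, gates, blocks and left-out libraries were the alternatives.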

Additional observations from a re-analysis of the deposited data

Results flagged for a closer look

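The segment difference of basal cells was set against that of Krt5-negative epithelial cells by the test of the difference itself (edgeR, adjusted p under 0.05). It called 253 genes (1.85%) higher and 368 (2.69%) lower. Listed here are 8 of the largest higher and 10 of the largest lower calls. On the log2 scale the difference of differences was higher for basal cells in the caput for Il22ra2 (5.38), Ggta1 (4.19), Popdc3 (3.68), Slc52a3 (3.49), Dipk1a (3.25), Crabp2 (3.11), Vdr (3.06) and Krt32 (3.01). It was lower for Ces1b (-6.58), Bbox1 (-4.38), Ubd (-3.93), Dusp15 (-3.84), Armcx6 (-3.69), Eva1a (-3.67), Lix1 (-3.64), Trp53i11 (-3.55), Phlda2 (-3.51) and Cyp26b1 (-3.48). In fits that left out a pool or the P42 cauda library, 4 of these 8 higher genes (Ggta1, Slc52a3, Dipk1a and Crabp2) and 6 of the 10 lower (Bbox1, Ubd, Armcx6, Eva1a, Lix1 and Trp53i11) were called every time. Of the genes called in all of those fits, each one other than Bbox1 lost its call with the endothelial and macrophage gate as comparator (adjusted p from 0.0721 for Trp53i11 to 0.874 for Crabp2). Among these same genes, Crabp2 also lost its call without the library block (adjusted p = 0.138) and with the stricter basal rule (adjusted p = 0.0931).

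The age difference of caput basal cells was set against that of corpus and cauda basal cells by the same kind of test. It called 18 genes (0.142%) higher and 82 (0.649%) lower, of which 20 of the largest are listed here. The age difference was higher in the caput for Ccl6 (4.22), Retnla (3.32), Dapk3 (3.23), Paxbp1 (3.06), Ptov1 (2.42), Tmem158 (2.39), Otulin (2.27), Ntf5 (1.87), Wfdc13 (1.79) and Ppp4r2 (1.77). It was lower for Ptgs2 (-6.58), Thbs1 (-4.04), Atf3 (-3.97), Hbegf (-3.77), Ifrd1 (-3.60), Napsa (-3.59), Csrnp1 (-3.55), Maff (-3.52), Nr4a1 (-3.20) and Gadd45b (-3.15). Without the P42 cauda library, whose basal sum came from 51 cells, the calls of Ptgs2 (adjusted p = 0.921), Otulin (adjusted p = 0.955), Ppp4r2 (adjusted p = 0.79) and Paxbp1 (adjusted p = 0.396) were among those lost. Ccl6 and Retnla, which are expressed by macrophages, stood at 81.1 and 374 CPM in the basal cells of that library and at no more than 6.53 CPM in caput basal cells.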

How the results depend on the processing

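Between segments, 666 genes higher became 1077 without a filter on low counts and 538 to 871 with a pool left out, and 652 lower became 432 with at most 10000 UMIs per cell and 409 to 807. The 23 basal-led genes higher in the caput became 38 without TMM factors, 15 at 3 times the other gates and 12 to 44 with a pool left out, and the 7 lower became 4, 3 and 3 to 9. For segment by cell type, 253 and 368 became 18 and 5 with the endothelial and macrophage gate as comparator, where Ptgs1 turned from 1.58 to -0.25, and 169 to 444 and 183 to 288 with a pool left out. With age, 70 higher became 46 (DESeq2), 221 (no filter), 34 (stricter basal rule) and 41 to 113 (1 caput library left out), and 75 lower became 37, 158, 39 and 39 to 45, or 128 without TMM factors. For age by segment, 18 higher became 12 (DESeq2), 78 (no filter), 79 (no TMM factors), 8 (stricter rule), 1 (no P42 cauda library) and 6 to 23, and 82 lower became 200 (no filter), 44 (no TMM factors), 25 (no P42 cauda library) and 41 to 57. The share of basal cells differed by 1.65 points after thinning and by 2.06 to 7.26 with a pool left out, and the mitochondrial share by -8.49 without the P42 cauda library and -9.17 to -6.49 with a pool left out, where p cannot go below 0.111 (exact permutation). Fewer samples or genes enter some of these fits, and otherwise the cause was not tested.

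Without the pool as a block the segment counts were 617 and 577, and without the library block those of segment by cell type were 99 and 142, with Mmp7, Spon1 and Hbegf among the calls lost. No paired analysis was possible for the age comparisons because each pool has 1 age. Leaving out a whole P56 pool there was not run, since no residual degrees of freedom remain, and 1 caput P56 library was left out instead, as chosen after seeing the data. Of the named genes' values under the alternatives, genes not called included, 1110 between segments kept their direction and their side of the threshold, 92 were no longer called and 5 became called. For segment by cell type 411 kept both and 93 were no longer called, for age 272 and 49, and for age by segment 176 and 57. In sums of few cells, genes near 1 CPM rest on single UMIs.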
